A study of Brassica rapa with 6 samples.

Results

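The miR164 family was examined in small RNA libraries from the petiole and the leaf of Brassica rapa, the Chinese cabbage, in which a broad, fleshy petiole carries the leaf blade. Its members were taken by name, as every entry of the deposited miRNA table that was named miR164, with each sequence counted once. This gave 7 sequences of 1011. The petiole and the leaf group each held 3 libraries from greenhouse-grown, wild-type plants, with no treatment, age or cultivar in the labels. The values were read counts that the authors had normalized per library.

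In plants, miR164 guides the cleavage of mRNAs of NAC transcription factors, among them the CUP-SHAPED COTYLEDON genes CUC1 and CUC2, which set up boundaries between organs. Work in Arabidopsis ties this balance to the separation of organs, to the teeth of the leaf margin and, through the NAC gene ORE1, to leaf ageing. A mature miRNA is cut from a hairpin as a duplex: the strand from the 5p arm guides cleavage in this family, and the 3p strand, the star strand, is usually less abundant. The NAC mRNAs were not measured in these libraries.

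The 7 sequences are shown because they differ at few bases and their tissue differences did not follow the main form alike. Each is given 5′ to 3′ as deposited, as DNA letters, with bases 2 to 8, the seed, in capitals.
bra-miR164a: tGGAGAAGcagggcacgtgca
ath-miR164a_R+1: tGGAGAAGcagggcacgtgcat
ath-miR164a_1ss21AT: tGGAGAAGcagggcacgtgct
bra-miR164b-5p: tGGAGAAGcagggcacgtgcg
gma-miR164a_L+1: cTGGAGAAgcagggcacgtgca
bra-miR164b-3p: cACGTGTTctactactccaac
ath-miR164b-3p_1ss16AC: cATGTGCCcatcttccccatc
The prefixes name the species of the matched entry (bra, Brassica rapa; ath, Arabidopsis; gma, soybean), while all reads came from Chinese cabbage.

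Of these, 5 were 5p forms, the strand that targets NAC mRNAs, and 4 of them shared the seed GGAGAAG. No sequence outside the family carried that seed. Counted from 1 at the 5′ end of bra-miR164a, ath-miR164a_1ss21AT differed from it by A21T and bra-miR164b-5p by A21G, both at the last base. The form ath-miR164a_R+1 was bra-miR164a with a T added at its 3′ end. The form gma-miR164a_L+1 was bra-miR164a with a C added at its 5′ end, which moves its seed to TGGAGAA. Both of these were 22 nt long, and the other 5 sequences were 21 nt. The 2 star strands, both 3p forms, were less alike, with 13 of 21 bases identical. Laid against bra-miR164a with 2 bases left over at each 3′ end, the layout of a miRNA duplex, bra-miR164b-3p faced 19 bases with 15 Watson-Crick and 2 G-U pairs, and ath-miR164b-3p_1ss16AC faced 19 bases with 15 Watson-Crick and 1 G-U pair. RefSeq lists 5 MIR164 genes, MIR164A to MIR164E, in assembly CAAS_Brap_v3.01. The table does not tie the reads of a sequence to any of these genes.

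The summed normalized count was 436475 ± 10506 in petiole and 789728 ± 15787 in leaf (SD, n = 3 each), so levels are given on the deposited scale and again with every library brought to the same total. Low values were spaced by a constant step per library, and with that step read as 1 sequenced read the totals stood for 457189 to 474185 reads in petiole and 729592 to 771523 in leaf, and the miR164 values for between 42.0 and 14624 reads. With equal totals the median log2 difference over all 601 sequences tested moved to 0.97, against 0.18 on the deposited scale. Petiole and leaf libraries hold mixtures of cell types, and fewer cells that express a miRNA cannot be told apart from less of it per cell. The table has no marker of either tissue by which the labels could be checked.

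Summed over its forms, miR164 was lower in petiole, by 2.10-fold on the deposited scale and by 1.16-fold with equal totals. The family sum was 8574, 7917 and 8417 in the petiole libraries, against 18123, 17763 and 16315 in the leaf libraries. Every petiole library lay below every leaf library. The log2 difference, petiole minus leaf, was -1.07 ± 0.06 (SE), with a limma adjusted p of 3.95e-06. Over the 80 families tested, 53.8% were called lower in petiole on this scale, with a median log2 difference of -0.77, so the direction of miR164 was a common one. With equal totals the sums were 12163, 10824 and 12035 in petiole, against 14017, 13548 and 12946 in leaf, and the groups still did not overlap. There the log2 difference was -0.21 ± 0.06 (limma adjusted p = 0.0124), in a table where 38.8% of families were called lower and the family median was 0.08.

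As a share of all normalized counts, the family held 1.98%, 1.77% and 1.96% in petiole, against 2.29%, 2.21% and 2.11% in leaf. A share does not depend on the scale of a library, but it does depend on the library's other sequences. These shares are the equal-totals values in other units and not a separate result. All petiole shares lay below all leaf shares, with means of 1.90% ± 0.12 and 2.20% ± 0.09 (SD, n = 3 each). The exact two-sided permutation test gave p = 0.1, the smallest that 3 against 3 libraries allow. By mean level miR164 ranked 13 of 98 families in petiole, between miR824 (12862 ± 791) and miR160 (6128 ± 201). In leaf it ranked 11, between miR396 (22165 ± 208) and miR160 (10332 ± 316). In neither tissue did the libraries' values of miR164 overlap those of these neighbours.

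**Figure D1:**
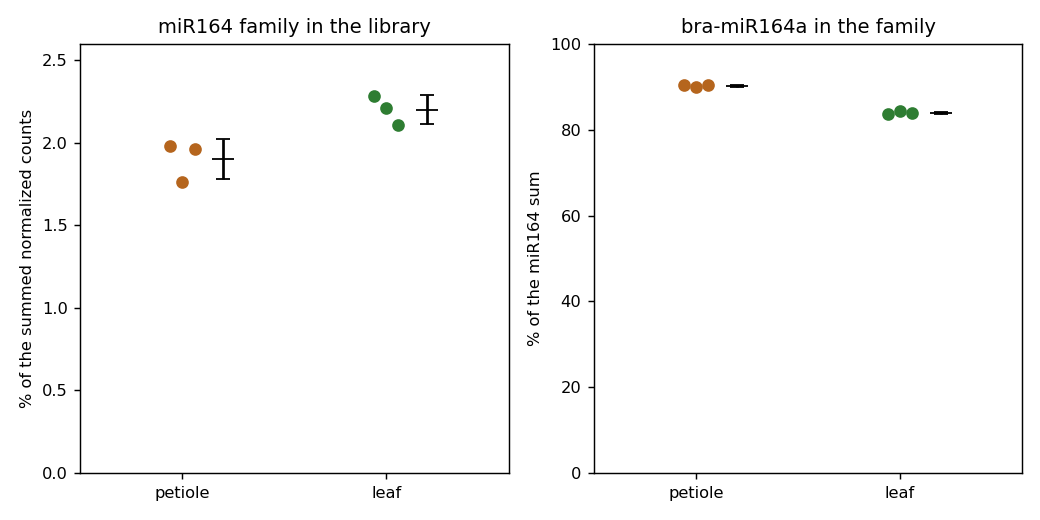
Left, the miR164 sum as a percentage of all normalized counts; right, bra-miR164a as a percentage of the miR164 sum; points are the 3 petiole and 3 leaf libraries, bars the mean ± SD. The family share averaged 1.90% in petiole and 2.20% in leaf, while the share of bra-miR164a within the family averaged 90.2% in petiole and 84.0% in leaf.

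The main form, bra-miR164a, carried most of the family in both tissues, and the size of its tissue difference depended on how the libraries were scaled. On the deposited scale it had 7747, 7120 and 7605 in petiole, against 15170, 14967 and 13686 in leaf. The petiole values were all lower, with a log2 difference of -0.96 ± 0.06 (SE; limma adjusted p = 2.42e-05). With equal totals it had 10989, 9734 and 10874 in petiole, against 11733, 11416 and 10860 in leaf, and the groups overlapped. The log2 difference was then -0.11 ± 0.06 and did not pass (limma adjusted p = 0.159), and after quantile normalization, which sets values by rank within a library, it turned to 0.0061 ± 0.04 (limma adjusted p = 0.919). Its share of all counts, which restates the equal-totals values, was 1.72% ± 0.11 in petiole and 1.85% ± 0.07 in leaf (SD, n = 3 each; exact two-sided permutation p = 0.3). It ranked between 11 and 13 of the 1011 sequences in every library.

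All 7 forms were tested, since each averaged 5 or more across the libraries, and all 7 were called lower in petiole on the deposited scale, where 28.3% of the 601 sequences were. Most of the 601 were less abundant than these forms. With only the 186 sequences of a mean of at least 50 tested, all 7 were again called lower. Of those 186, 106 were called lower and 50 higher, so the direction was common among abundant sequences. On that scale all petiole values lay below all leaf values for each of the 7, as for 31.3% of the sequences. Their median log2 difference was -1.22, against 0.18 over all sequences. With equal totals, 4 of the 7 were called lower and none higher, where 17.8% of sequences were called lower and 53.4% higher, and 5 of the 7 lay wholly below leaf, as did 18.8% of sequences. The 4 were bra-miR164b-5p, both 3p forms and the 22 nt form ath-miR164a_R+1. Forms of 1 family may share reads and precursors, so these counts were not taken as independent.

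**Figure D2:**
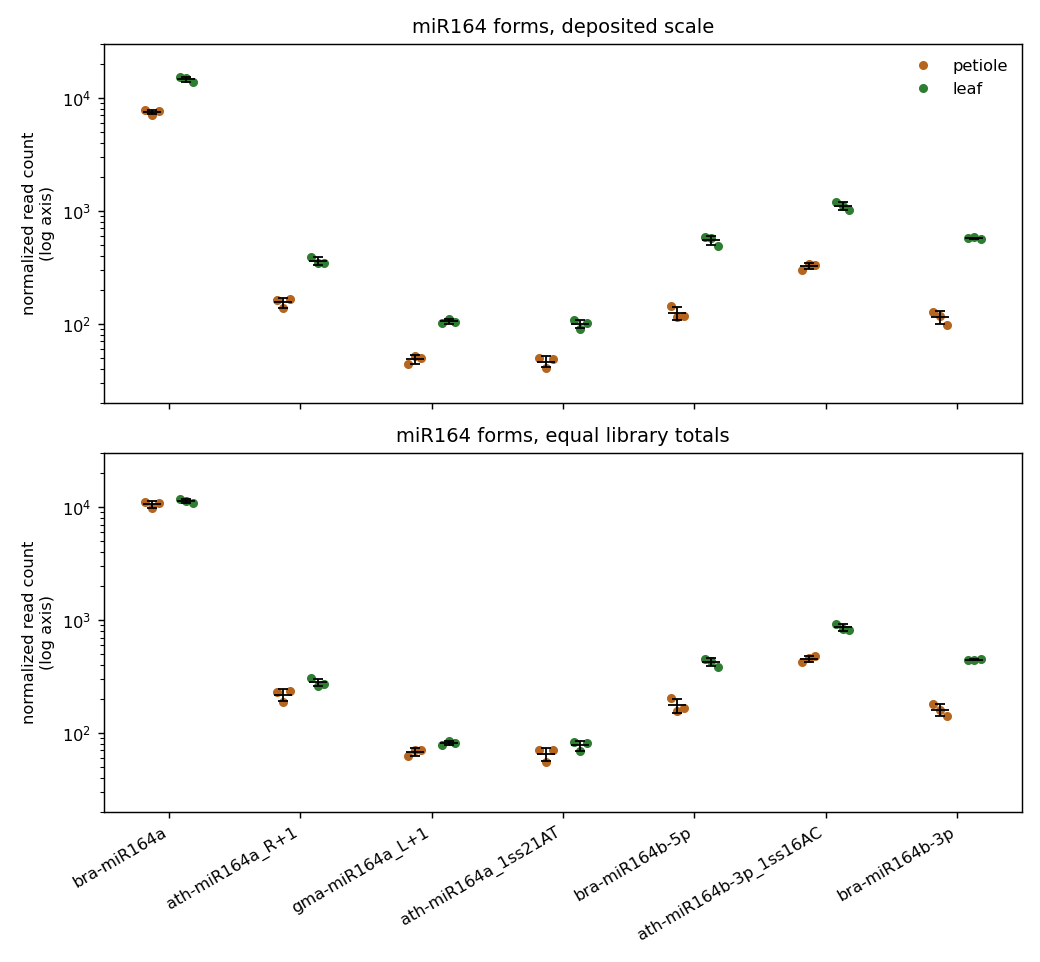
Normalized read count (log axis) of each miR164 form in 3 petiole and 3 leaf libraries, on the deposited scale (top) and with equal library totals (bottom); bars are the mean ± SD. On the deposited scale the groups separate for all 7 forms, while with equal totals those of bra-miR164a overlap and those of bra-miR164b-5p and both 3p forms stay apart.

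Here called the end variants, 3 of the forms that differ from bra-miR164a at an end had deposited-scale differences near its own. Their differences too were smaller with equal totals. The other such form, bra-miR164b-5p, is described after them. The form ath-miR164a_R+1, longer by a base at the 3′ end, had 162.6, 137.2 and 164.6 in petiole, against 392.6, 343.4 and 345.2 in leaf, a log2 difference of -1.22 ± 0.10 (SE; limma adjusted p = 9.78e-05). With equal totals its groups still did not overlap, and the log2 difference was -0.36 ± 0.12 (limma adjusted p = 0.0284). The form gma-miR164a_L+1, which starts a base earlier, had 44.0, 51.8 and 49.7 in petiole, against 102, 111 and 103 in leaf. Its petiole values were all lower and the log2 difference was -1.11 ± 0.11 on the deposited scale. With equal totals the difference was -0.26 ± 0.11 and did not pass (limma adjusted p = 0.0636), although its groups did not overlap. The form ath-miR164a_1ss21AT, with T as its last base, had 49.6, 40.3 and 49.3 in petiole, against 107, 90.2 and 102 in leaf. It differed by -1.09 ± 0.13 on the deposited scale, and with equal totals its groups overlapped and the difference of -0.25 ± 0.15 did not pass (limma adjusted p = 0.167). After quantile normalization all 3 end variants were called lower, with log2 differences of -0.42 for ath-miR164a_R+1, -0.84 for gma-miR164a_L+1 and -0.87 for ath-miR164a_1ss21AT (limma adjusted p = 0.0155, 0.000791 and 0.00445). On that scale 146 of 601 sequences were called lower and 138 higher, and bra-miR164a was not called. The ratios of gma-miR164a_L+1 and ath-miR164a_1ss21AT to bra-miR164a within a library, given below, did not pass.

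The second annotated guide of Chinese cabbage, bra-miR164b-5p, had a larger difference. Its values were 144, 115 and 117 in petiole, against 583, 573 and 487 in leaf, a 4.38-fold difference of means with a log2 difference of -2.13 ± 0.12 (SE; limma adjusted p = 1.5e-05). With equal totals the values were 204.1, 156.9 and 166.7 in petiole, against 451.2, 437.1 and 386.3 in leaf. The groups stayed apart, with a log2 difference of -1.27 ± 0.12 (limma adjusted p = 0.000172).

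Both star strands, which face the guide in the duplexes laid out above, had larger differences as well. The form bra-miR164b-3p had 128, 117 and 98.3 in petiole, against 570, 582 and 565 in leaf, the largest log2 difference of the 7 forms at -2.32 ± 0.11 (SE; limma adjusted p = 6.19e-06). With equal totals it was -1.47 ± 0.10, with 161 ± 20.3 in petiole and 444 ± 3.96 in leaf (SD, n = 3 each). The form ath-miR164b-3p_1ss16AC, the second most abundant of the family, had 300, 336 and 334 in petiole, against 1198, 1096 and 1026 in leaf. Its log2 difference was -1.77 ± 0.08 on the deposited scale and -0.92 ± 0.08 with equal totals (limma adjusted p = 9.96e-05), and its groups did not overlap on either scale. The table does not say which Chinese cabbage precursor gives ath-miR164b-3p_1ss16AC.

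**Figure D3:**
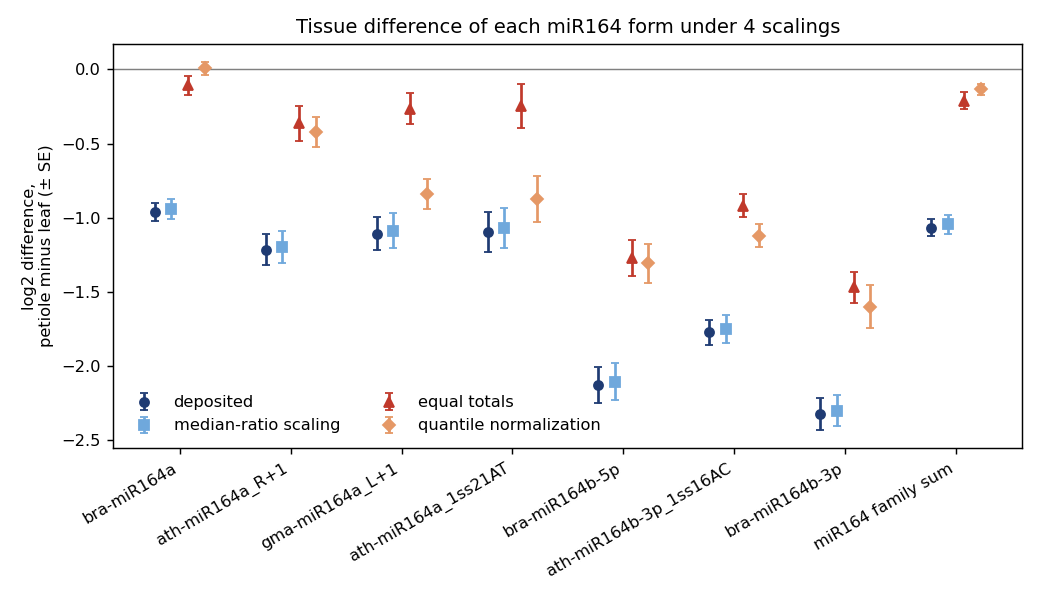
Log2 difference, petiole minus leaf, with its SE (n = 3 libraries per tissue), of each miR164 form and of the family sum, on the deposited scale and under 3 other scalings. Under all 4 scalings, among the 7 forms, bra-miR164a lies nearest 0 and bra-miR164b-3p farthest below it, at -0.96 and -2.32 on the deposited scale and at -0.11 and -1.47 with equal totals.

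Whether the forms moved apart from the main form was tested on the ratio of each to bra-miR164a within a library, which the scale of a library does not change apart from the 1 added to each value. This test was chosen after the values were seen, and all its ratios share the value of bra-miR164a. Per 100 of bra-miR164a, bra-miR164b-5p stood at 1.86, 1.61 and 1.53 in petiole, against 3.85, 3.83 and 3.56 in leaf. Every petiole ratio was lower, with a log2 difference of -1.16 ± 0.10 (SE; limma adjusted p = 8.54e-05). For bra-miR164b-3p the ratios were 1.65, 1.65 and 1.29 in petiole, against 3.76, 3.89 and 4.13 in leaf, a log2 difference of -1.36 ± 0.12 (limma adjusted p = 9.07e-05). For ath-miR164b-3p_1ss16AC they were 3.87, 4.72 and 4.39 in petiole, against 7.90, 7.33 and 7.50 in leaf, a log2 difference of -0.81 ± 0.09 (limma adjusted p = 0.000306). These 3 forms were thus lower in petiole relative to bra-miR164a, as were 16.2% of the 600 sequences tested in this way, and 17.8% of the 600 had all petiole ratios below all leaf ratios.

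The end variants described above differed less from the main form in the same test than bra-miR164b-5p did, although that form also differs only at its last base. The ratio of ath-miR164a_R+1 was 2.06 ± 0.12 per 100 in petiole and 2.47 ± 0.15 in leaf (SD, n = 3 each), and every petiole ratio was lower. Its log2 difference of -0.25 ± 0.09 passed narrowly (limma adjusted p = 0.0441). That call was lost without leaf replicate 1 or 3 or any 1 of the petiole replicates, with adjusted p between 0.0378 and 0.117 over the 6 libraries left out in turn. It was also lost with 5 in place of 1 added to each value (adjusted p = 0.071) and with the replicate number as a block (adjusted p = 0.0624). The ratios of ath-miR164a_1ss21AT and gma-miR164a_L+1 differed by -0.13 ± 0.14 and -0.14 ± 0.14, and neither passed (limma adjusted p = 0.412 and 0.366).

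**Figure D4:**
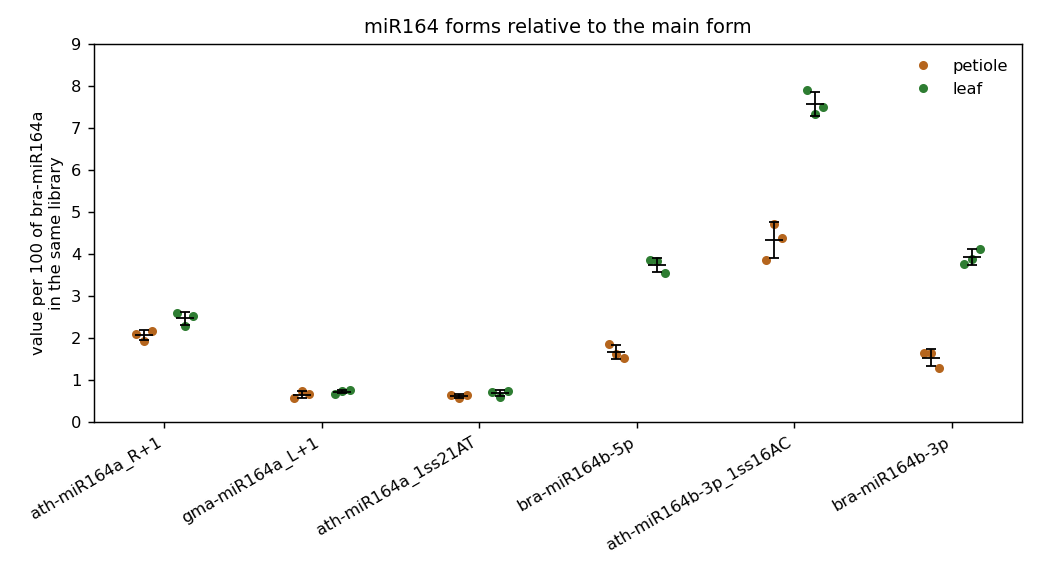
Value of each of the 6 other miR164 forms per 100 of bra-miR164a in the same library, for 3 petiole and 3 leaf libraries; bars are the mean ± SD. The ratios of bra-miR164b-5p, ath-miR164b-3p_1ss16AC and bra-miR164b-3p are lower in all petiole libraries, with means of 1.67, 4.32 and 1.53 in petiole and 3.74, 7.57 and 3.92 in leaf. That of ath-miR164a_R+1 is also lower in all petiole libraries, by less, with means of 2.06 in petiole and 2.47 in leaf.

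The composition of the family differed accordingly. In petiole bra-miR164a made up 90.4%, 89.9% and 90.4% of the miR164 sum, against 83.7%, 84.3% and 83.9% in leaf, and every petiole share was higher. The exact two-sided permutation p was 0.1, the smallest this design allows, and adjusted over the 21 shares and ratios compared it was 0.15. The 3p forms together made up 5.28% ± 0.39 in petiole and 9.65% ± 0.18 in leaf (SD, n = 3 each; exact permutation p = 0.1). The summed 5p forms, mostly bra-miR164a, exceeded the summed 3p forms by 19.1, 16.5 and 18.5 times in petiole, against 9.25, 9.58 and 9.25 times in leaf. The groups did not overlap. These shares and sums restate the shift seen in the ratios to bra-miR164a and are not separate results.

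For bra-miR164b, the 1 locus name with entries for both arms, the guide and the star strand were at similar levels in both tissues. Whether the reads of both entries came from that locus is not known. The ratio of bra-miR164b-5p to bra-miR164b-3p was 1.13, 0.978 and 1.19 in petiole, against 1.02, 0.985 and 0.861 in leaf, with overlapping groups. Its log2 difference was 0.20 ± 0.13 (SE) and did not pass with limma over the 53 loci with both arms (adjusted p = 0.248), 49.1% of which were called. With each library left out in turn that difference lay between 0.12 and 0.28. The star strands did not keep 1 ratio to each other, since ath-miR164b-3p_1ss16AC stood at 2.35, 2.86 and 3.40 times bra-miR164b-3p in petiole, against 2.10, 1.88 and 1.82 times in leaf. The petiole ratios were all higher (exact two-sided permutation p = 0.1).

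Set beside other families with several forms, the spread among the miR164 forms was narrow. The log2 differences of its 7 forms spanned 1.36 on the deposited scale, the second smallest span of the 20 families with at least 5 tested forms, whose median span was 3.65. Only miR164 and miR171 had every tested form called lower on that scale, and with equal totals none of the 20 did. These spans are a description, with no test, and depend on how many forms a family has and how abundant they are.

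Among other families known from Arabidopsis to act in organ boundaries, meristems, leaf margins and polarity, only miR171 was, like miR164, called lower in petiole both on the deposited scale and with equal totals. Of 7 such families beside miR164, 4 were called lower and 2 higher in petiole on the deposited scale, where 53.8% of families were lower and 27.5% higher. With equal totals 1 was called lower and 6 higher, where 38.8% were lower and 48.8% higher. Upstream of MIR164A in Arabidopsis stand TCP factors that activate it and are themselves targets of miR319. The miR319 sum was 18989 ± 1262 in petiole and 360 ± 48.7 in leaf (SD, n = 3 each), opposite in direction to miR164, with a log2 difference of 5.72 on the deposited scale and 6.58 with equal totals. The mRNAs of TCP factors were not measured in these libraries, and a link between miR319 and miR164 was not tested. The sum of miR171, whose targets are meristem genes of the GRAS class, was 16692 ± 511 in petiole and 58458 ± 3295 in leaf, and its log2 differences were -1.81 and -0.95 on those scales. The sum of miR390, which triggers the small RNAs that restrain auxin response factors, was higher in petiole on both scales (1.99 and 2.85). After quantile normalization miR164 and miR171 were also called lower, at -0.14 and -0.99. There 37 of 80 families were called lower and 27 higher, and the family median was -0.09, near the value of miR164.

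The calls on the remaining families of that list depended on the scale, and for all of them but miR394 so did the direction. For miR160, which targets auxin response factors, the log2 difference was -0.75 on the deposited scale and 0.10 with equal totals, both called, and 0.018 after quantile normalization, not called. For miR166, which targets the polarity genes of the HD-ZIP III class, it was -0.64 and 0.21, both called, and -0.01 after quantile normalization, not called. For miR396, which targets growth-regulating factors, it was -0.38 and 0.47, both called, and 0.26 after quantile normalization, also called. For miR394, which targets an F-box gene of the shoot meristem, it was 0.05, which did not pass, and 0.90 with equal totals and 0.66 after quantile normalization, which did. These sums include star strands.

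**Figure D5:**
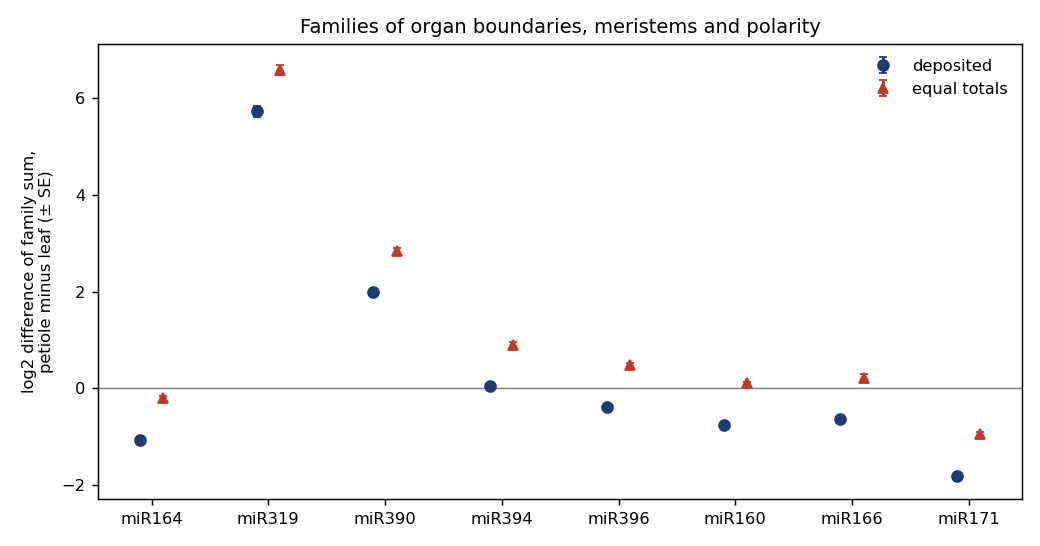
Log2 difference, petiole minus leaf, of the summed forms of miR164 and 7 related families, with its SE (n = 3 libraries per tissue), on the deposited scale and with equal library totals. Only miR164 (-1.07 and -0.21) and miR171 (-1.81 and -0.95) lie below 0 on both scales among these 8, and miR319 lies highest.

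The sequences outside the family whose profile over the 6 libraries was most like that of bra-miR164a were found by the smallest distance between log2 profiles with equal totals, among 142 named sequences with a mean of at least 50. They were bra-miR158-3p at a distance of 0.17, cas-MIR472-p3_1ss14GT at 0.25, bra-miR396-5p at 0.26, ath-miR166a-3p at 0.27 and bra-miR159a at 0.28, where the median distance was 1.19. All 5 differed little between the tissues with equal totals, by between -0.31 and 0.08 on the log2 scale. That follows from the choice, since bra-miR164a itself differed by -0.11 on that scale, and is not a separate result. The closest, bra-miR158-3p, averaged 131293 ± 2334 in petiole and 146652 ± 5093 in leaf on that scale (SD, n = 3 each).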

How the data were processed

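Libraries of petiole and leaf RNA were prepared with Illumina's TruSeq small RNA kit, per the labels' protocols, and reads that were adapter dimers, junk, repeats, of low complexity or from common RNA families were taken out with the ACGT101-miR program. The sources used here name no aligner, genome build or miRBase release. The deposited signal values are normalized counts, per the file headers, scaled by the authors by a factor that no source used here gives; the protocols mention more libraries than the 6 analysed here. Of 1069 entries, 58 repeated a sequence with the same values and were dropped. Of values under 60 reads, 74.5% to 76.9% in petiole and 71.5% to 73.8% in leaf were whole multiples of the step within 0.02 reads, so reads were not recovered for a count test. Intervals from counting were therefore not given.

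In R 4.3.3, limma 3.58.1 with its trend of variance on mean was run on log2(value + 1), on the 601 sequences, or 80 family sums, with a mean of at least 5; the added 1 understates changes of low values. Ratios between arms were fitted without the trend, on the most abundant form per arm. Benjamini-Hochberg adjusted p under 0.05 over all features of a fit was called. Permutation tests were exact and two-sided. On simulated data for the 601 sequences, 22.4%, 64.2% and 86.4% of changes of 0.5, 1 and 2 on the log2 scale were recovered, with 2 false calls among 401 unchanged sequences. The simulation held no difference of scale between the tissues, so it does not cover false calls that arise from scaling. The members, lists and tests were chosen with earlier results of these data known. Every miR164 sequence is named, as are the families of the list and the 5 nearest profiles. The labels do not say whether replicates are separate plants; if not, the p-values reflect only technical spread between these libraries. Values of forms that differ by 1 base or an end are uncertain, since reads may have been split among them. Alternatives were the scale, the added value, the filter, the trend, a replicate block and each library left out.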

Additional observations from a re-analysis of the deposited data

How the results depend on the processing

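The scale of the libraries was the choice that changed most. For bra-miR164a the log2 difference was -0.11 with equal totals and turned to 0.0061 after quantile normalization (adjusted p = 0.159 and 0.919), and 4 in place of 7 forms were called lower with equal totals. Median-ratio scaling, added after the data were seen, stayed near the deposited scale, at -0.94 for bra-miR164a and -1.05 for the family sum. With equal totals miR166, miR160 and miR396 turned to 0.21, 0.10 and 0.47, and after quantile normalization miR160 and miR396 stood at 0.018 and 0.26. The cause was not tested. With 1 library left out in turn, the family sum ranged from -1.11 to -1.03, bra-miR164a from -1.01 to -0.93, its share of the family from 6.14 to 6.42 percentage points higher in petiole, and miR394, not called on the deposited scale, from -0.0072 to 0.090, its sign turning without leaf replicate 1 (-0.00059) or petiole replicate 2 (-0.0072). The family sum stayed lower and called under all 15 alternatives, most of which kept the deposited scale. Its difference shrank to -0.21 with equal totals and to -0.14 after quantile normalization (limma adjusted p = 0.0124 and 0.0202). With replicate numbers as a block the family difference was again -1.07, and 280 in place of 298 sequences were called; same-numbered libraries deviated together with r of 0.02, 0.14 and -0.12, so the numbers were not taken as pairs. The block ended the call on the ratio of ath-miR164a_R+1 (adjusted p = 0.0624). Low forms rest on few reads: ath-miR164a_1ss21AT on 42.0 to 54.5 in petiole.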
